A study of Mus musculus with 11 samples.

Results

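Total RNA levels in the hippocampus were compared between young female F1 mice of the 2 reciprocal crosses of the inbred strains BL6 and CAST. The comparison used the 6 young mice of the 11 mice in the series. In 3 of them the mother was CAST and the father BL6, and in the other 3 the mother was BL6 and the father CAST. With a CAST mother, replicates 1 and 2 were 8 weeks old and replicate 3 was 9 weeks old, and all mice with a BL6 mother were 9 weeks old. The labels give no treatment and name no engineered allele. In the headers of the allelic counts the BL6 copy is written i4fb, a name not explained in the sources used here. Whether it marks a modified BL6 line was not settled. Old mice of the same crosses, 2 with a CAST mother (103 weeks) and 3 with a BL6 mother (101, 101 and 104 weeks), were used as a separate set of animals. BL6 is the laboratory strain on which the mouse reference genome is built, and CAST is an inbred strain derived from wild castaneus mice.

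Reciprocal F1 females share their nuclear genome, since each carries a BL6 and a CAST copy of every autosome and of the X. They differ in which parent gave which copy, and in their mitochondrial DNA, which comes from the mother. An imprinted gene is read mainly from the copy of 1 parent, so the strain of the copy in use swaps between the crosses. The strains of the mother, of the mitochondrial DNA and of each parental copy swap together and cannot be told apart in this design.

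Total counts ran from 111.1 to 214.8 M per young mouse, and levels are given as CPM, the counts of a gene per 1 M counts of the library after TMM scaling. Where the values of single mice are set against each other, those with a CAST mother come first, each cross in the order of its replicates. Of 55401 genes in the files, 29673 passed the filter on low counts and were tested. Dentate gyrus markers summed to 359 to 842 CPM and CA1 markers to 440.6 to 802 CPM, so the hippocampus was represented in all 6 libraries. Striatal markers summed to 3483 CPM in CAST-mother mouse 2 and 2157 CPM in BL6-mother mouse 3, against 189 to 421 CPM in the other mice. In bulk tissue, fewer cells of a type and less RNA per cell cannot be told apart.

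The 2 sets of sequences below belong to the genes with the clearest differences, nuclear copies of mitochondrial genes, and show how alike a copy and its mitochondrial gene are. Each is a window of 120 bases from the GENCODE transcripts (GRCm38), written 5′ to 3′, with capitals at the bases that differ from the mitochondrial gene. Each window was picked among stretches that both copies cover without a gap, as one where the chromosome 2 copy has the most base changes. Other such stretches have as many changes or fewer. Gaps and parts outside the shared stretch were not counted. For mt-Co1 the window covers bases 1174 to 1293 of the gene. Gm29216 (chr1:24615958-24616077, minus strand) is identical to mt-Co1 there, and Gm13340 (chr2:22588355-22588474, minus strand) differs at 6 bases.
mt-Co1: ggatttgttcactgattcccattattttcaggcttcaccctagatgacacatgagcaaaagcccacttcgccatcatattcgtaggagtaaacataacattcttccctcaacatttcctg
Gm29216: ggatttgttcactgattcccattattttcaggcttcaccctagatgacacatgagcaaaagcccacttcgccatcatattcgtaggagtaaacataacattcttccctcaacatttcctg
Gm13340: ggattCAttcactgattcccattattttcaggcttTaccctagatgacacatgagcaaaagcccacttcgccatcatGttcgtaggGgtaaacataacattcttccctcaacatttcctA
For mt-Co2 the window covers bases 445 to 564. Gm28661 (chr1:24615002-24615121, minus strand) is identical to mt-Co2 there, and Gm13341 (chr2:22587411-22587530, minus strand) differs at 7 bases.
mt-Co2: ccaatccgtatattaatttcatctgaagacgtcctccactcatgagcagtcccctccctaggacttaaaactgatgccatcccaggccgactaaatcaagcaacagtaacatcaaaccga
Gm28661: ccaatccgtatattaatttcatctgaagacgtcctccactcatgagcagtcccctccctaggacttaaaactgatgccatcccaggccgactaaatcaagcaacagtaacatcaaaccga
Gm13341: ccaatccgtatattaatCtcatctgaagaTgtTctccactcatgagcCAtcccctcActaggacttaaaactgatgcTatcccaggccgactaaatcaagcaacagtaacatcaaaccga

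The second set shows the snoRNA copies of chromosome 7 that carry the other main difference. They lie in tandem between Ube3a and Snrpn on the minus strand, and many have the same letters. The annotation holds 134 copies of 78 to 79 bases (chr7:59344073-59619095, median spacing 1871 bases) and 70 copies of 92 to 94 bases (chr7:59673461-59904848, median spacing 2527 bases). Among 130 copies of exactly 79 bases there were 52 distinct sequences, and 93 copies shared theirs with at least 1 other copy. Capitals mark bases that differ from the majority sequence. Gm26498 (chr7:59386081-59386159) is the copy that passed the test, Gm26230 (chr7:59368236-59368314) has the same sequence, and Gm23922 (chr7:59370106-59370184) differs from the majority at 1 base. Gm24966 (chr7:59344073-59344151), with 10 differences, is the most divergent, and Gm25742 (chr7:59550238-59550316) equals the majority.
Majority: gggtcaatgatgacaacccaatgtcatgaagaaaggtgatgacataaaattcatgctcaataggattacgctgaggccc
Gm26498: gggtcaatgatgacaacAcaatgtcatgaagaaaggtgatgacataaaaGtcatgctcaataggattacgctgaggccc
Gm26230: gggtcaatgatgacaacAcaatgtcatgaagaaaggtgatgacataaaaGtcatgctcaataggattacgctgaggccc
Gm23922: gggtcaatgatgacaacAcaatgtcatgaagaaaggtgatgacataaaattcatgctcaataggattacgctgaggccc
Gm24966: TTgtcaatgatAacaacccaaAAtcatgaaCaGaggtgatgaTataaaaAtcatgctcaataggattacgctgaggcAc
Gm25742: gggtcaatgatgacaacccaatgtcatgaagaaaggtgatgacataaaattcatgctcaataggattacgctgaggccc
Among 68 copies of exactly 94 bases there were 25 distinct sequences. Gm26365 (chr7:59693220-59693313), Snord116l12 (chr7:59904755-59904848) and Gm23265 (chr7:59726161-59726254) are shown because their levels contrast.
Majority: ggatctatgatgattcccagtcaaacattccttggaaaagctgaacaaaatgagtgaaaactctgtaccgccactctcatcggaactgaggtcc
Gm26365: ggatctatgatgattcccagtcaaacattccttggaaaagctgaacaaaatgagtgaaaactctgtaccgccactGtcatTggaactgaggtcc
Snord116l12: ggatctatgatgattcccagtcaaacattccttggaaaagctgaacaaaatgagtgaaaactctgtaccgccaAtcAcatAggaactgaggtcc
Gm23265: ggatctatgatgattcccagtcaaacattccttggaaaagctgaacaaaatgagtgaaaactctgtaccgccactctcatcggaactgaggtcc

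In the comparison of all genes, 8 of 29673 had an adjusted p under 0.05, 0.027% of those tested (edgeR quasi-likelihood test, Benjamini-Hochberg over all genes tested). With a CAST mother 6 were higher (0.0202%) and 2 lower (0.00674%). Of the 8 genes, 7 were nuclear genes that match a mitochondrial gene, all annotated as pseudogenes, and 1 was a chromosome 7 snoRNA. No protein-coding gene was called. At an unadjusted p under 0.05, 430 genes were higher (1.45%) and 542 lower (1.83%) with a CAST mother. The values of the 2 crosses did not overlap for 1382 genes higher (4.66%) and 992 lower (3.34%) with a CAST mother, and the median log2 difference over all genes tested was -0.01.

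Nuclear copies of mitochondrial genes arise when pieces of mitochondrial DNA are inserted into a chromosome. The mitochondrial genes they match encode subunits of the respiratory chain: mt-Co1, mt-Co2 and mt-Co3 of cytochrome c oxidase, the mt-Nd genes of NADH dehydrogenase, mt-Cytb of the cytochrome bc complex and mt-Atp6 of ATP synthase. All 15 listed mitochondrially encoded genes stand at 0 in every mouse in the deposited counts, so the levels of the mitochondrial genes themselves could not be compared. Their nuclear copies hold the 7 smallest p-values of the comparison.

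Gm13341 (chr2:22587291-22587962, minus strand), which matches mt-Co2 at 95.9% identity over 684 aligned bases, stood at 135, 187 and 192 CPM with a CAST mother and at 0.400, 0.287 and 0.197 CPM with a BL6 mother. Every CAST-mother mouse lay far above every BL6-mother mouse. The log2 difference was 9.17 ± 0.32 (SE), with an adjusted p of 0.000114, on mean levels of 171 ± 31.5 CPM (SD, n = 3) and 0.295 ± 0.102 CPM (SD, n = 3). Its neighbour Gm13340 (chr2:22588103-22589647, minus strand), 97.6% identical to mt-Co1 over 1545 bases, was the most abundant of the copies, at 603, 805 and 732 CPM with a CAST mother and at 117, 146 and 87.9 CPM with a BL6 mother. The crosses did not overlap, with a log2 difference of 2.61 ± 0.22 (adjusted p = 0.016). Gm13339, the next copy in the same block (mt-Nd2), was at 50.1, 66.4 and 70.2 against 35.6, 34.9 and 22.2 CPM, again without overlap, and did not pass the test (adjusted p = 0.669).

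A block of chromosome 1 holds copies that are nearly or fully identical to their mitochondrial genes, and these moved in both directions. Gm29216 (chr1:24615706-24616197, minus strand), 99.8% identical to mt-Co1 over 483 bases, stood at 0.791, 1.097 and 0.815 CPM with a CAST mother and at 49.2, 32.5 and 21.3 CPM with a BL6 mother. It was lower with a CAST mother, the opposite of Gm13340, which matches the same mitochondrial gene; the log2 difference was -5.25 ± 0.35 (adjusted p = 0.00414). Gm28437 (chr1:24613189-24613971, minus strand), identical to mt-Co3 over 783 bases, stood at 24.96, 34.7 and 36.5 CPM with a CAST mother and at 1.21, 1.09 and 0.573 CPM with a BL6 mother. It was higher with a CAST mother, by 5.06 ± 0.32 on the log2 scale (adjusted p = 0.00385). Gm28438 (chr1:24612775-24613119, minus strand), 99.7% identical to mt-Nd3, was higher as well, at 4.91, 5.85 and 8.67 against 0.910, 0.857 and 0.744 CPM (log2 difference 2.95 ± 0.28, adjusted p = 0.0293).

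The remaining copies of that block did not pass the test. Gm10925, identical to mt-Atp6, was at 124, 74.1 and 61.9 against 15.1, 15.2 and 6.37 CPM without overlap (adjusted p = 0.14). Gm28661, identical to mt-Co2, was at 2.11, 2.91 and 2.68 against 10.1, 4.67 and 3.00 CPM (adjusted p = 0.999), so the order was the reverse of that of Gm13341. Gm28439 (mt-Nd4) and Gm10222 (mt-Nd4l), also fully identical, overlapped between the crosses.

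On chromosome 4, neighbouring copies were called in opposite directions. Gm11410 (chr4:80003989-80005131, plus strand), 92.9% identical to mt-Cytb, stood at 8.49, 11.9 and 8.00 CPM with a CAST mother and at 0.0728, 0.107 and 0.0513 CPM with a BL6 mother, a log2 difference of 6.89 ± 0.35 (adjusted p = 0.00111). Gm11407 (chr4:80002331-80003388, plus strand), 92.4% identical to mt-Nd5, stood at 0.360, 0.397 and 0.565 CPM with a CAST mother and at 4.74, 4.30 and 6.40 CPM with a BL6 mother, a log2 difference of -3.54 ± 0.30 (adjusted p = 0.016). The first was higher and the second lower with a CAST mother, and neither overlapped between the crosses. Gm11408 (mt-Nd6), which lies between them, was at 0.814, 0.974 and 0.885 against 0.102, 0.0620 and 0.402 CPM without overlap and did not pass the test (adjusted p = 0.999).

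In all, 31 nuclear genes in the files matched a mitochondrial gene at 80% identity or more over at least 100 bases. The filter kept 19 of them, and the 12 others had at most 4 counts in any young mouse. Of the 19, 5 were called higher and 2 called lower, against 0.0202% and 0.00674% of all genes. Among the 19, 9 were higher and 3 lower without overlap between the crosses, against 4.66% and 3.34% of all genes. Summed over the 31 genes, the level was 987, 1225 and 1158 CPM with a CAST mother and 266, 269 and 167 CPM with a BL6 mother, a ratio of means of 4.80. With 3 mice against 3 the smallest p of a two-sided exact permutation test is 0.1, so no test was read from sums.

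Adding up the copies of the same mitochondrial gene gave unequal ratios. The mt-Co2 matches (Gm13341 and Gm28661) summed to 174 ± 31.9 CPM (SD, n = 3) with a CAST mother and 6.21 ± 3.79 CPM (SD, n = 3) with a BL6 mother, a ratio of 28.0. The mt-Co1 matches gave a ratio of 4.40. For mt-Nd5 the copies pulled apart: Gm11407 was lower with a CAST mother and Gm4076, at 11.0, 13.2 and 12.7 against 4.86, 6.92 and 4.06 CPM (adjusted p = 0.384), was not called, and their sum was 12.7 ± 1.21 against 10.4 ± 0.804 CPM (SD, n = 3 each), a ratio of 1.22. The strain of the mitochondrial DNA swaps with the mother here, and how reads were divided between copies this alike was not tested. The plot of copies by mouse shows both directions on a log axis.

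**Figure D1:**
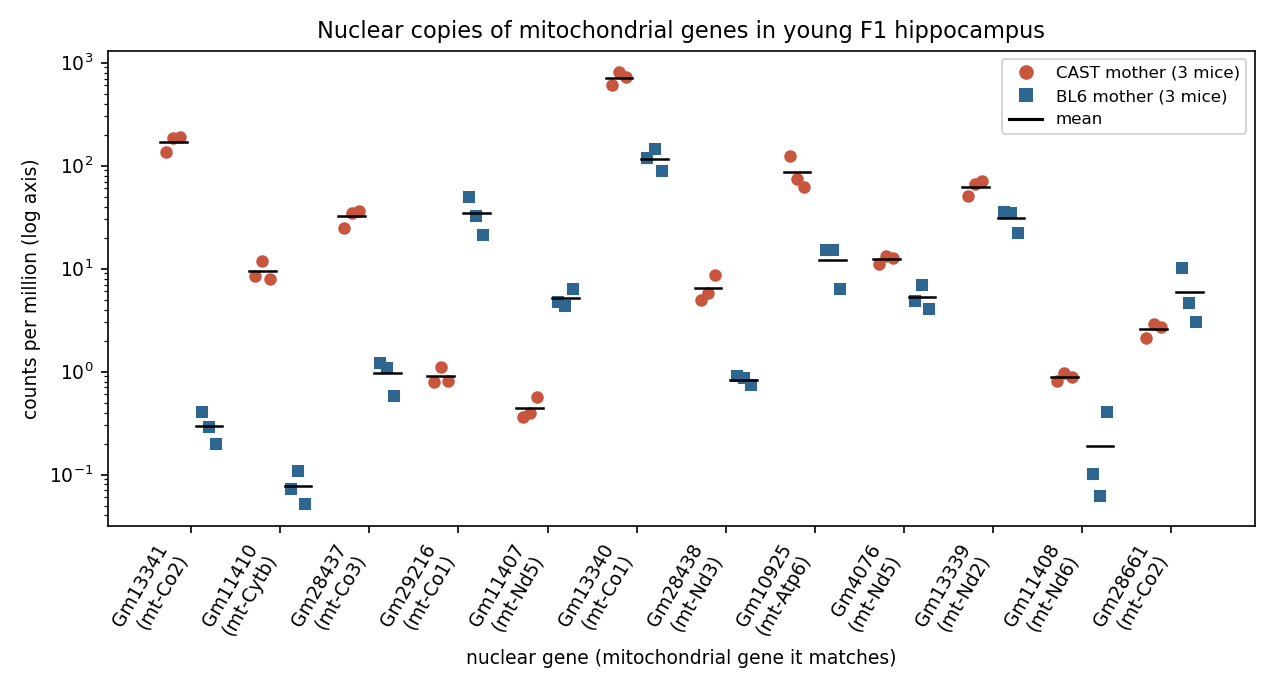
Levels in CPM (log axis) of the 12 nuclear genes matching a mitochondrial gene with the smallest p, in 3 young mice with a CAST mother (circles) and 3 with a BL6 mother (squares); black lines are means. Gm13341 lies at 135 to 192 CPM with a CAST mother and at or below 0.400 CPM with a BL6 mother, whereas Gm29216 and Gm11407 are higher with a BL6 mother.

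Genes of the nucleus that work in the same organelle showed no called difference. Of 35 nuclear oxidative phosphorylation genes, none had an unadjusted p under 0.05, and the median log2 difference was 0.10. Small positive differences were the more frequent: 28 of the 35 were positive, and 6 (17.1%) were higher with a CAST mother without overlap, against 4.66% of all genes. Of 25 genes of mitochondrial transcription, translation and DNA maintenance, none had an unadjusted p under 0.05, with a median of 0.08. In that list 21 were positive and 2 (8%) were higher without overlap, against 4.66% of all genes. Its mean log2 level did not overlap between the crosses. In the old mice the medians of both lists were negative, at -0.29 and -0.07. Of 18 tested genes of mitochondrial stress responses, 1 had an unadjusted p under 0.05 (Chac1, lower with a CAST mother, named after its value was seen). This was 5.56%, against 1.83% lower over all genes.

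The chromosome 7 region between Ube3a and Snrpn is imprinted. A long host transcript, Snhg14, is made there from the paternal chromosome in neurons, and its introns hold tandem C/D box snoRNAs of the Snord115 and Snord116 families. C/D box snoRNAs guide the methylation of other RNAs, and Snord115 can pair with a serotonin receptor transcript. Loss of the paternal copy of the matching human region causes Prader-Willi syndrome.

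Gm26498, the called copy, stood at 503, 508 and 254 counts with a CAST mother and at 10, 11 and 10 counts with a BL6 mother. In CPM this was 3.94, 2.96 and 1.27 against 0.0728, 0.0620 and 0.0855 CPM, without overlap. The log2 difference was 5.21 ± 0.51 (adjusted p = 0.0333). In fits without a mouse the call was lost for each mouse but CAST-mother mouse 3: the adjusted p was 0.0648 and 0.133 without CAST-mother mouse 1 or 2, and 0.324, 0.313 and 0.196 without BL6-mother mouse 1, 2 or 3. It was also lost with upper-quartile factors (adjusted p = 0.0578), with a filter at a mean of 1 CPM (adjusted p = 0.0597) and with the mean of striatal markers as a term (adjusted p = 0.0574). Over the 16 alternatives the call held in 6 and was lost in 10, with the direction kept in each.

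Several other copies were at or near 0 with a BL6 mother. Gm26230, which has the same sequence as Gm26498, stood at 223, 214 and 108 against 0, 0 and 0 counts. Relative to library totals without TMM scaling, this was at least 155-fold higher against a floor of 3 counts over the group. Gm23660 stood at 126, 130 and 72 against 0, 0 and 0 counts, at least 93.3-fold higher by the same floor. Gm23922 stood at 211, 204 and 85 against 1, 0 and 0 counts, Gm25175 at 99, 102 and 56 against 0, 1 and 0 counts, Gm24657 at 91, 114 and 46 against 1, 0 and 0 counts and Gm24088 at 88, 78 and 35 against 0, 1 and 0 counts. The crosses did not overlap for any of these 6 copies, and none passed the adjustment (adjusted p 0.0661 to 0.122).

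Over the 134 copies of 78 to 79 bases, 48 had counts only in CAST-mother mice and 3 only in BL6-mother mice, 62 had counts in both crosses and 21 in neither. More than 3 counts were found for 40 of the 48 and 1 of the 3. The filter kept 50 copies, many through the CAST-mother mice alone, and 1 of them was called. Over all genes tested 0.027% were called. Summed counts were 4906, 4778 and 2557 with a CAST mother and 1300, 939 and 914 with a BL6 mother. In CPM this was 26.4 ± 12.9 against 7.52 ± 2.099 (SD, n = 3 each), a ratio of 3.50.

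Not every copy was split. Of the 50 that passed the filter 14 overlapped between the crosses, against 27299 of all 29673 genes tested. Since many of the 50 passed through the CAST-mother mice alone, this share is no result about the copies. The copies at the ends of the array had many counts. Gm24966 was at 6.18, 3.47 and 1.87 against 4.92, 2.14 and 4.28 CPM (log2 difference 0.02 ± 0.47) and Gm25870 at 1.80, 1.14 and 0.695 against 1.13, 0.519 and 0.812 CPM (log2 difference 0.56 ± 0.43), both overlapping. These 2 copies held 18.98% of the counts of the array with a CAST mother and 60.2% with a BL6 mother. Gm24306 overlapped as well, with 67 counts over the 3 CAST-mother mice and 81 over the 3 BL6-mother mice, and so did Gm25156, with 50 and 60. The authors' allelic counts assign reads to the BL6 or CAST copy where a strain variant allows it; Gm24966 had 1148 such reads over the 6 mice, of which 0.261% were maternal.

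A few copies had the opposite order. Gm23560 was at 15, 19 and 14 against 39, 28 and 20 counts and Gm24759 at 7, 8 and 1 against 9, 37 and 32 counts, both lower with a CAST mother at an unadjusted p under 0.05 and not called (adjusted p = 0.999). Gm25742, which has the majority sequence, was at 10, 8 and 9 against 24, 8 and 15 counts and overlapped.

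The longer copies had lower counts. Summed over 70 copies, counts were 499, 430 and 157 with a CAST mother and 106, 93 and 94 with a BL6 mother. In CPM the sums were 3.91, 2.51 and 0.785 against 0.772, 0.524 and 0.803, a ratio of means of 3.43. These scaled sums overlapped between the crosses. Those of the shorter copies, at 38.4, 27.9 and 12.8 against 9.46, 5.29 and 7.81 CPM, did not. There were 27 copies with counts only in CAST-mother mice and 4 only in BL6-mother mice. The 3 that passed the filter were Gm26365, at 48, 60 and 22 against 1, 0 and 0 counts, Snord116l12, at 86, 96 and 31 against 3, 1 and 4 counts, and Gm23265, at 5, 5 and 1 against 45, 23 and 29 counts. The first and second were higher and the third lower with a CAST mother without overlap, and none was called (adjusted p 0.17, 0.272 and 0.589).

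The host transcript was not split between the crosses. Snhg14 was at 448, 303 and 263 against 423, 294 and 286 CPM, a log2 difference of 0.02 ± 0.24, and 2.29% and 2.33% of its assigned reads were maternal with a CAST and a BL6 mother. Snrpn, which encodes a splicing protein, was at 696, 662 and 717 against 751, 713 and 644 CPM, and Ube3a, a ubiquitin ligase gene, at 369, 283 and 290.3 against 396, 308 and 283 CPM. All 3 overlapped between the crosses. So did the 5 tested of 6 other snoRNAs between Ube3a and Snrpn, Snord64 and Snord107 among them. The other one, Gm24983, lies within the stretch of the shorter copies. It had 21, 24 and 6 counts with a CAST mother and 2, 1 and 0 with a BL6 mother, without overlap, and did not pass the filter. Of 435 other snoRNAs tested across the genome, 3 were higher (0.69%) and 4 lower (0.92%) at an unadjusted p under 0.05. The shares over all genes were 1.45% and 1.83%, and the median log2 difference of these snoRNAs was -0.07.

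The copy in use in this region is BL6 with a CAST mother and CAST with a BL6 mother. The strain of that copy and the strain of the mother cannot be told apart, and how reads from a CAST array were placed on the reference array was not tested. The libraries were made from polyA RNA. Whether reads over a snoRNA gene came from the mature snoRNA or from its host transcript was not tested. The plot along the array shows where the copies with high levels lie.

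**Figure D2:**
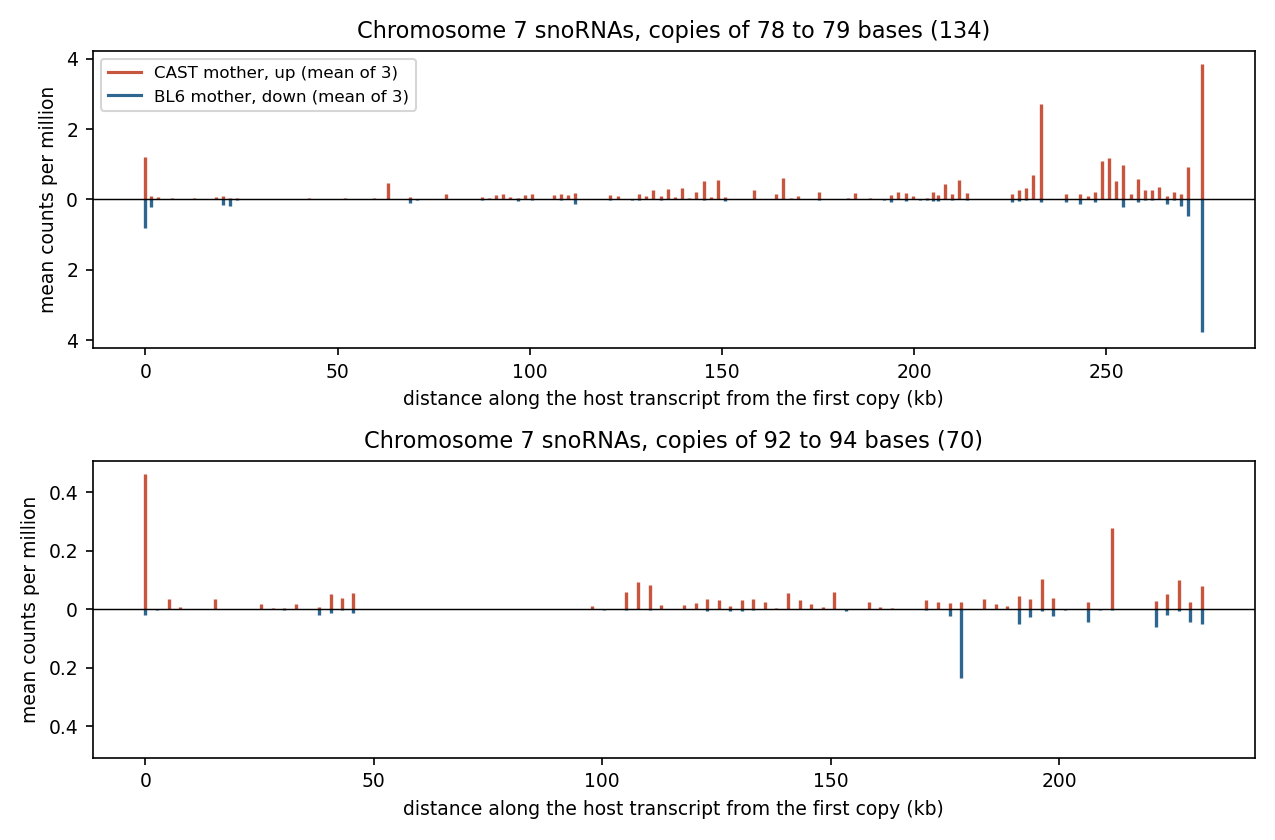
Mean CPM of each snoRNA copy in 3 young mice with a CAST mother (bars up) and 3 with a BL6 mother (bars down), against distance from the first copy along the host transcript in kb, for 134 copies of 78 to 79 bases (top) and 70 copies of 92 to 94 bases (bottom). Gm24966, the last copy of the upper array, reaches about the same level in both crosses, and Gm26498 has the highest bar up among the copies before it.

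Outside these arrays no imprinted gene was called. Of 37 tested genes listed as paternally read, 2 were higher (5.41%) and 4 lower (10.8%) at an unadjusted p under 0.05. Over all genes the shares were 1.45% and 1.83%. The median log2 difference of the 37 genes was -0.07. Of 34 tested genes listed as maternally read, 2 were higher (5.88%) and 3 lower (8.82%), with a median of -0.03. Trappc9 stands in both lists.

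Ndn, which encodes necdin, a growth-restraining protein of neurons, had the smallest p of the genes listed as paternally read. It stood at 63.9, 54.8 and 65.0 CPM with a CAST mother and at 114.8, 171 and 157 CPM with a BL6 mother. The crosses did not overlap, and the log2 difference was -1.27 ± 0.17 (adjusted p = 0.122). Of its assigned reads 0.319% and 0.596% were maternal with a CAST and a BL6 mother, so the level was lower where the copy in use was BL6. The old mice did not show this order, at 158 and 64.8 against 127, 118 and 131 CPM. Gm18908, a pseudogene that lies within Snrpn on the other strand, was at 0.493, 0.263 and 0.340 against 1.62, 2.93 and 2.51 CPM (log2 difference -2.69 ± 0.36, adjusted p = 0.122). It was paternal in both crosses too, and in the old mice it kept the order without overlap, at 0.706 and 0.611 against 2.21, 2.28 and 2.43 CPM.

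Other genes listed as paternally read were named by the smallest p. Mest, which encodes a hydrolase-fold protein, was at 35.1, 33.4 and 25.5 against 41.1, 46.8 and 51.8 CPM. Airn, the RNA that silences Igf2r on the same chromosome, was at 1.28, 0.980 and 1.17 against 2.35, 1.79 and 2.09 CPM, and Trappc9, of a vesicle tethering complex, at 50.2, 46.5 and 49.4 against 55.7, 68.3 and 60.9 CPM. These were lower with a CAST mother without overlap. Zrsr1, a splicing factor gene, was at 86.7, 83.3 and 85.1 against 74.8, 73.0 and 64.8 CPM and Ano1, a chloride channel gene, at 5.62, 3.00 and 3.77 against 2.59, 2.76 and 2.55 CPM, both higher without overlap. The adjusted p of each of these 5 was 0.999. Their parental shares are not given here, and Trappc9 is also listed as maternally read. Magel2 overlapped between the crosses, with 5.63 CPM in BL6-mother mouse 3 and at most 1.12 CPM in the other young mice, and Nnat, of the endoplasmic reticulum, overlapped as well.

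Among genes listed as maternally read, Klf14, a transcription factor gene, had the smallest p but few reads. It stood at 3, 5 and 6 counts with a CAST mother and at 32, 55 and 36 counts with a BL6 mother, without overlap (log2 difference -3.31 ± 0.39, adjusted p = 0.0855). Of 60 assigned reads 98.3% were maternal, so here the level was higher where the copy in use was BL6. The old mice overlapped, at 0.173 and 0.0216 against 0.0190, 0.0149 and 0.274 CPM. Atp10a, a phospholipid flippase gene, was at 14.1, 8.49 and 9.00 against 5.42, 6.18 and 6.69 CPM, and Ddc, which makes dopamine and serotonin, at 8.78, 8.27 and 6.38 against 4.27, 4.92 and 5.56 CPM. Both were higher with a CAST mother without overlap (adjusted p = 0.999), and 47.5% and 48.6% of their assigned reads were maternal. Kcnk9, a potassium channel gene with 96.2% maternal reads, was at 88.2, 53.5 and 59.7 against 96.9, 79.4 and 116.3 CPM and overlapped, as did Begain, Zim2 and Igf2r.

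The Meg3 to Mirg region of chromosome 12 is read from the maternal chromosome into long noncoding RNAs that hold snoRNAs and microRNAs. Meg3 varied widely within each cross, at 2829, 1470.5 and 856 against 2460.0, 1109.6 and 3561 CPM. Rian, whose annotated span holds some of the snoRNAs but not all, was at 669, 539 and 354 against 592, 408 and 589.7 CPM. Of 23 snoRNAs tested in the region, none was higher and 2 (8.70%) were lower with a CAST mother at an unadjusted p under 0.05. Over all genes 1.83% were lower. Gm24899 (chr12:109641022-109641094, plus strand) was at 241, 282 and 161 against 846, 730 and 825 counts (log2 difference -2.00 ± 0.37, adjusted p = 0.384). Gm22981, which lies beyond the annotated end of Rian, was at 1, 1 and 4 against 15, 18 and 32 counts (adjusted p = 0.402). Both separated the crosses in the old mice too, Gm24899 at 0.944 and 0.826 against 2.76, 3.41 and 1.41 CPM and Gm22981 at 0 and 0.00720 against 0.165, 0.120 and 0.0622 CPM. The assigned reads of Gm24899 were 89.9% maternal with a CAST mother and 100% maternal with a BL6 mother.

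Of 65 microRNA genes tested in the region, 2 were higher and 2 lower at an unadjusted p under 0.05. Each was 3.08%, against 1.45% and 1.83% of all genes. The lower ones were Mir770, at 14.2, 8.47 and 3.72 against 29.2, 13.4 and 52.6 CPM, and Mir370, at 49, 75 and 20 against 128, 79 and 195 counts. Mir770 overlapped between the crosses and, like Meg3, was highest in BL6-mother mouse 3. The higher ones, named like these after their values were seen, were Mir453 and Mir496a. None was called. In these polyA libraries, whether reads over a microRNA or snoRNA gene of the region came from the small RNA or from a longer transcript was not tested.

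**Figure D3:**
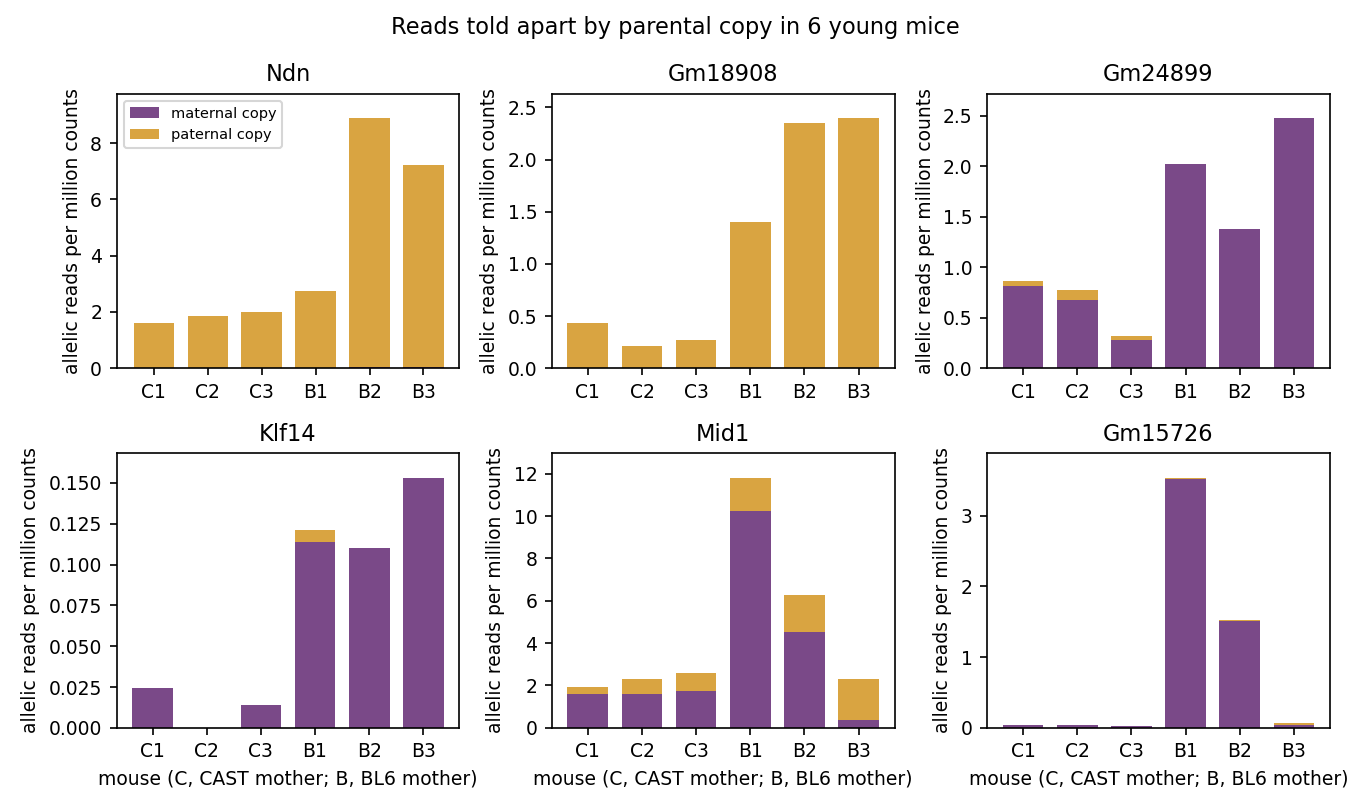
Reads assigned to the maternal (purple) and paternal (yellow) copy scaled to the library total, stacked, in young mice with a CAST mother (C1 to C3) and a BL6 mother (B1 to B3), for 6 genes, each panel with its own axis from 0. Reads of Ndn and Gm18908 are paternal and those of Gm24899 and Klf14 mostly maternal in both crosses, and Mid1 and Gm15726 stand high in B1 and B2.

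In females 1 X is silenced in each cell, and the share of cells that use each copy varies between mice. Over 539 X-linked genes with at least 20 assigned reads, the median BL6 share was 20.3%, 39.2% and 44.3% with a CAST mother and 56.5%, 35.9% and 41.5% with a BL6 mother. The crosses overlapped, with CAST-mother mouse 1 lowest and BL6-mother mouse 1 highest. Xist, the RNA that coats the silenced X, came from the BL6 copy for 81.2%, 63.1% and 57.3% of assigned reads with a CAST mother and 46.7%, 66.8% and 60.9% with a BL6 mother. Its level was 1014, 1171 and 969 against 1004, 937 and 744 CPM (adjusted p = 0.999). Of 14 genes that can escape silencing, 1 was higher and 1 lower at an unadjusted p under 0.05, 7.14% each. The shares over all genes were 1.45% and 1.83%. The 2 genes were Shroom4 and Mid1, the first named after its value was seen.

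Mid1, which encodes a ubiquitin ligase of microtubules, lies at the end of the X, at the border of the region shared with the Y. It and its neighbours were listed after their values were seen, so their count supports nothing. Mid1 was at 2.11, 2.64 and 3.04 against 24.9, 13.9 and 3.24 CPM, Gm15726 at 9, 11 and 12 against 1588, 1117 and 28 counts, G530011O06Rik at 18, 32 and 74 against 2343, 2155 and 88 counts and Gm15247 at 34, 29 and 25 against 531, 394 and 47 counts. BL6-mother mice 1 and 2 stood far above the rest and BL6-mother mouse 3 close to the CAST-mother mice. In BL6-mother mice 1, 2 and 3, 1350, 860 and 41 assigned Mid1 reads were of the BL6 copy and 203, 335 and 216 of the CAST copy. None was called (adjusted p 0.497 for Gm15726). Without BL6-mother mouse 3, Gm15726 and G530011O06Rik passed the adjustment (adjusted p 0.0054 and 0.0282).

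Further into the shared region, Erdr1 was at 0.0861, 0.0992 and 0.0450 against 0.364, 0.863 and 0.949 CPM and Gm47283, annotated on the Y copy of the region, at 2.06, 1.77 and 1.595 against 4.43, 6.20 and 6.83 CPM. Both were lower with a CAST mother without overlap and not called (adjusted p 0.203 and 0.143). The old mice varied widely within a cross: Gm47283 was at 18.3 and 12.6 against 3.73, 18.5 and 3.86 CPM.

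The Xlr3 and Xlr4 genes, some of which are read mainly from the maternal X in brain, were also listed after their values were seen. Xlr3c stood at 155, 94 and 98 against 18, 5 and 5 counts without overlap (log2 difference 3.47 ± 0.65, adjusted p = 0.426). Xlr3a stood at 260, 105 and 136 against 103, 58 and 51 counts. In CPM it overlapped, at 2.04, 0.613 and 0.680 against 0.750, 0.327 and 0.436. Of its assigned reads 93.7% and 87.3% were maternal with a CAST and a BL6 mother. Members of this family are alike enough that they may share reads. Gm24598 (chrX:64496584-64496657, plus strand), an X-linked snoRNA gene among the 20 genes with the smallest p, was at 48, 59 and 54 against 6, 9 and 5 counts (adjusted p = 0.122) and kept its order in the old mice, at 0.161 and 0.187 against 0.0127, 0.0224 and 0.0311 CPM.

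No marker or activity gene was called, but several lists leaned to 1 cross. Endothelial genes, of the vessel wall, had 10 of 12 members higher with a CAST mother at an unadjusted p under 0.05, against 1.45% of all genes, and a median log2 difference of 0.78. Esam, a junction gene, was at 9.53, 10.8 and 11.4 against 5.50, 6.63 and 6.39 CPM, and Abcb1a, the efflux pump of the blood-brain barrier, at 21.2, 29.7 and 31.7 against 16.1, 16.5 and 13.2 CPM. Flt1, a VEGF receptor gene, was at 47.0, 56.3 and 74.7 against 32.3, 38.6 and 27.7 CPM, and Slco1a4, an organic anion transporter gene, at 24.0, 34.4 and 31.7 against 20.9, 19.1 and 13.4 CPM. These 4 did not overlap between the crosses (adjusted p 0.623 to 0.999). In the old mice the median was -0.10.

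Mural cells surround these vessels, and 4 of 9 of their genes were higher with a CAST mother at an unadjusted p under 0.05, against 1.45% of all genes (median 0.51). Rgs5, of pericytes, was at 50.7, 50.2 and 65.0 against 44.1, 40.3 and 31.9 CPM, and Myh11, of smooth muscle, at 7.36, 12.3 and 36.6 against 5.47, 5.95 and 6.80 CPM. CAST-mother mouse 3 was highest for both, and for Acta2 and Tagln, which overlapped. Genes of red blood cells went the other way: 5 of 5 were lower with a CAST mother at an unadjusted p under 0.05, against 1.83% of all genes, with a median of -0.77. The beta-globin gene Hbb-bs was at 17.4, 23.7 and 25.2 against 30.3, 50.0 and 32.5 CPM, and Hbb-bt at 5.59, 6.04 and 5.36 against 7.50, 11.8 and 6.67 CPM. The alpha-globin genes Hba-a1, at 3.73, 6.21 and 9.49 against 10.6, 26.1 and 11.0 CPM, and Hba-a2, at 0.947, 1.07 and 1.45 against 2.69, 8.24 and 2.80 CPM, are nearly identical and may share reads. The old mice had a median of 0.61 for this list.

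Immediate early genes, transcribed within minutes of neuronal activity, had 9 of 18 members lower with a CAST mother at an unadjusted p under 0.05, against 1.83% of all genes, and a median of -0.55. The transcription factor gene Fos was at 30.2, 24.2 and 17.8 against 53.9, 59.8 and 42.0 CPM (log2 difference -1.11 ± 0.22, adjusted p = 0.497), and Npas4, a neuron-specific one, at 14.3, 21.2 and 11.3 against 35.4, 32.7 and 28.9 CPM. Ier2 was at 814, 1001 and 1579 against 2210, 2661 and 1075 counts, and Btg2 at 11.9, 14.2 and 29.2 against 55.4, 48.9 and 31.4 CPM. In CPM none of these 4 overlapped between the crosses in young mice, and each did in old mice, where the median of the list was 0.02. The counts of Ier2 overlap before scaling: CAST-mother mouse 3 had the largest library and BL6-mother mouse 3 the smallest.

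Cerebellar markers, of a tissue outside the hippocampus, were listed after their values were seen, so a count of them supports nothing. Of 16 genes, 11 had a negative and 5 a positive log2 difference, and 8 overlapped between the crosses. The summed level of the list was 1035 to 1834 CPM with a CAST mother and 1123 to 1369 CPM with a BL6 mother. Gabra6, a granule cell GABA receptor subunit, stood at 21, 14 and 12 against 504, 668 and 149 counts (log2 difference -4.86 ± 0.59, adjusted p = 0.0972). Cbln3, of granule cells, stood at 49, 47 and 54 against 847, 1241 and 186 counts, Ppp1r17, of Purkinje cells, at 31, 21 and 42 against 138, 213 and 136 counts, and Fat2 at 0.931, 0.642 and 2.50 against 16.7, 16.3 and 4.51 CPM. These 4, the members with the smallest p, were lower with a CAST mother without overlap, and in the old mice they had the opposite order, Gabra6 at 1.12 and 1.36 against 0.0633, 0.396 and 0 CPM. The difference between the ages had an unadjusted p of 0.000142 for Gabra6 and 4.42e-06 for Ppp1r17, and neither passed the adjustment (adjusted p 0.418 and 0.139). In a fit with the mean of these markers as a term, chosen after seeing the data, no gene was called by edgeR, 1198 genes had an unadjusted p under 0.05, and the log2 difference of Gm13341 was 9.38 (adjusted p = 0.0639).

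Thalamic markers had 5 of 10 members higher with a CAST mother at an unadjusted p under 0.05, against 1.45% of all genes. In this list CAST-mother mouse 1 stood apart, with a summed level of 1667 CPM against 451 to 536 CPM in the other mice. Prkcd, a kinase gene, was at 220.4, 22.1 and 25.7 against 20.8, 17.5 and 7.35 CPM, and Tcf7l2, a transcription factor gene, at 91.5, 14.3 and 13.1 against 9.05, 12.6 and 9.58 CPM. Plekhg1 and Lef1 were highest in the same mouse. Myelin genes had 4 of 15 members higher, against the same 1.45% (median 0.56), with overlap for all 15. Ermn, which encodes a cytoskeletal protein of oligodendrocytes, was at 74.2, 81.5 and 46.3 against 49.8, 46.1 and 27.4 CPM. Ugt8a, which makes a myelin lipid, and Gjc3, a gap junction gene, were like it highest in CAST-mother mouse 2. The part of tissue content in these differences was not tested for single lists.

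**Figure D4:**
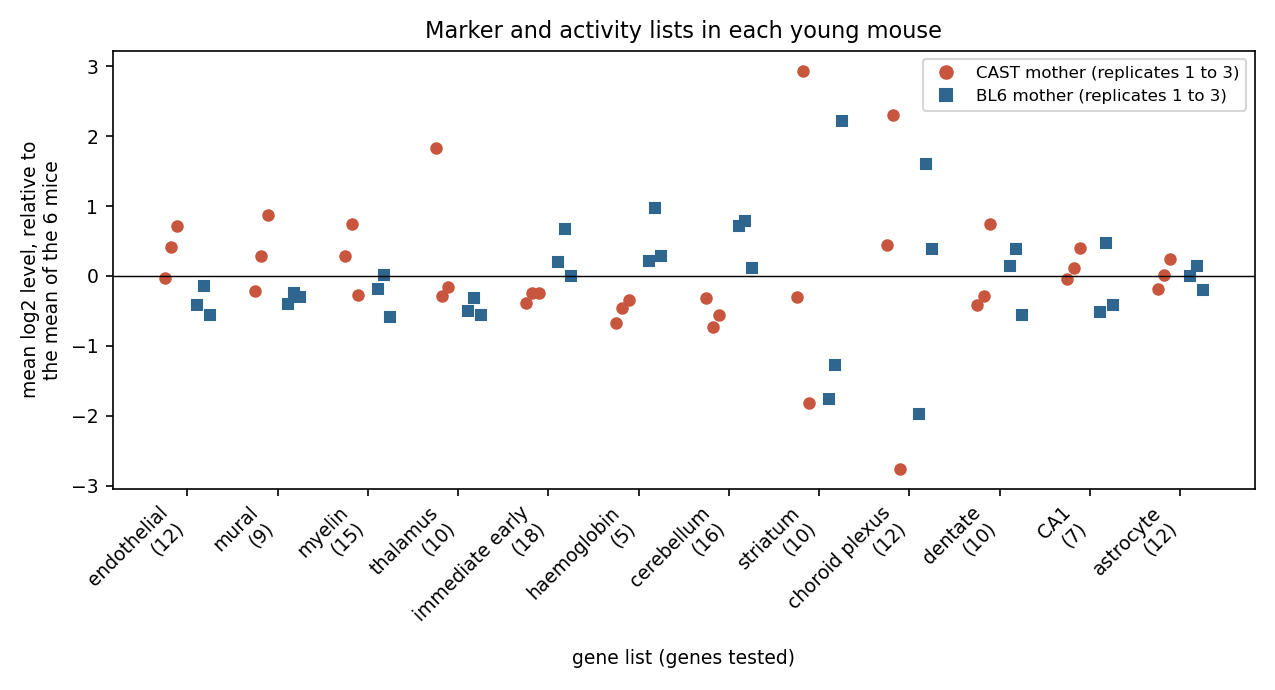
Mean log2 level of each gene list in each young mouse relative to the mean of the 6 mice (y axis), for 12 lists with the number of genes tested (x axis); circles are mice with a CAST mother and squares mice with a BL6 mother, in order of replicate. The crosses do not overlap for the endothelial, mural, thalamic, immediate early, haemoglobin and cerebellar lists, the last chosen after its values were seen, and the striatal list is high in 1 mouse of each cross.

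Of 13 genes of the early oligodendrocyte lineage, 3 (23.1%) were higher with a CAST mother at an unadjusted p under 0.05, against 1.45% of all genes. In this list 4 were higher without overlap (30.8%, against 4.66% of all genes) and 11 had a positive log2 difference. Tcf7l2, named among the thalamic markers, stands in that list too. Of 10 hypothalamic markers tested, 2 (20%) were lower at an unadjusted p under 0.05, against 1.83% of all genes. The summed level was highest in BL6-mother mouse 3, at 24.97 CPM against 4.08 to 8.97 CPM in the other young mice. No gene with an unadjusted p under 0.05 was found among 18 DNA methylation genes, 15 genes that maintain imprints, 18 circadian genes, 18 class I histocompatibility genes, 30 ribosomal protein genes, 14 microglial genes and 12 choroid plexus genes. Of 24 glucocorticoid-related genes, 2 were higher (Pdk4, Fkbp5) and 2 lower (Crhr1, Crh) with a CAST mother. Each was 8.33%, against 1.45% and 1.83% of all genes. Of 25 interferon-response genes tested, 2 were higher (Gbp3, Oasl2), 8% against 1.45% of all genes. The genes in these brackets were named after their values were seen.

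The old mice gave the same contrast in other animals. Of 29848 genes tested there, 7 were called (0.0235%), and each of them was among the 8 called in the young mice. Gm28438 was not called there, with a log2 difference of 1.70 and an adjusted p of 0.477. The old log2 differences were 7.78 for Gm13341, 5.55 for Gm11410, 3.69 for Gm28437, 1.72 for Gm13340, -4.28 for Gm29216, -4.19 for Gm11407 and 5.76 for Gm26498. All 8 kept their direction. Over all genes tested in both ages, 9531 of 29038 (32.8%) had the same sign. In the fit of the difference between ages no gene of 31355 was called by edgeR (0%), and 3711 had an unadjusted p under 0.05.

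**Figure D5:**
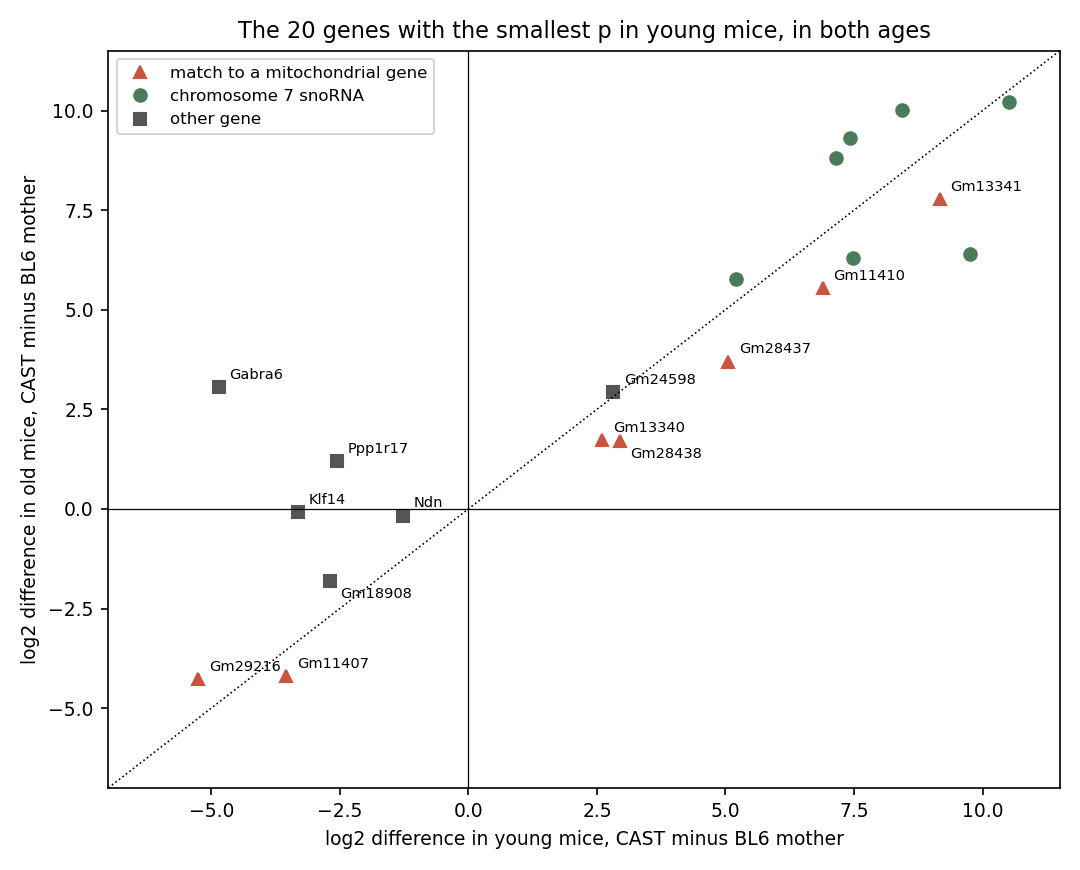
Log2 difference, CAST mother minus BL6 mother, in young mice (x axis, 3 against 3) and old mice (y axis, 2 against 3) for the 20 genes with the smallest p in young mice; the dotted line marks equal values. Triangles (matches to a mitochondrial gene) keep their direction, while Gabra6 and Ppp1r17 lie on opposite sides of 0 in the 2 ages; fitted values of snoRNA copies at 0 counts in a cross depend on the prior count and are no bound.

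Of the 8 calls, those of Gm13341, Gm11410, Gm28437 and Gm29216 held in each fit without 1 mouse and in the fit without both striatum-rich libraries, where their log2 differences were 8.91, 6.50, 4.76 and -5.65. In that fit the others kept their direction and lost their call: Gm11407 at -3.26 (adjusted p = 0.52), Gm13340 at 2.36 (adjusted p = 0.225), Gm28438 at 2.96 (adjusted p = 0.576) and Gm26498 at 5.26 (adjusted p = 0.576). The call of Gm11407 was lost without CAST-mother mouse 1 or 2 or BL6-mother mouse 1 or 3 (adjusted p 0.0602 to 0.18). That of Gm13340 was lost without CAST-mother mouse 2 or BL6-mother mouse 1 or 3 (adjusted p 0.0541 to 0.231), and that of Gm28438 without CAST-mother mouse 2 or any 1 BL6-mother mouse (adjusted p 0.133 to 0.324). With age in weeks as a term the calls of Gm11407 (adjusted p = 0.15), Gm13340 and Gm29216 (both adjusted p = 0.0504) were lost.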

How the data were processed

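Hippocampal polyA RNA of each of the 11 mice was sequenced from a directional library, per the labels' protocols. The submitters' processing notes name bcl2fastq 2.20, Trim Galore 0.6.6, HISAT2 2.1.0, SAMtools 1.10, and featureCounts of Subread 2.0.0, with GRCm38; the counting of reads with several placements, and the way reads were assigned to a strain's copy, are not given in the sources used here. Raw counts per gene were deposited by the authors, as a total and as separate allelic counts for the BL6 and CAST copy. Allelic counts held 35.1 to 35.9% of the total counts of a young mouse.

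Young mice were tested with edgeR 4.0.16 in R 4.3.3 (filterByExpr, TMM factors, quasi-likelihood test, Benjamini-Hochberg over all genes tested, threshold 0.05), and the test was checked on simulated data. Old mice and the difference between ages were fitted in the same way. Pairs of mice of the same cross differed by more than counting noise; the labels name the mice separately, so n counts mice. Matches to mitochondrial genes came from blastn 2.17.0 (80% identity over 100 bases) on GENCODE transcripts, to which 55141 of 55401 genes were matched. A ratio of means uses TMM-scaled CPM. A floor uses counts summed over the mice of a cross, divided by their summed library totals without TMM scaling. The floor covers counting error only, and neither value carries the spread between mice. The members and 40 gene lists were chosen with earlier results of these data known, and 3 of the lists (cerebellum, Xlr3, shared X and Y region) after their values were seen. Named were all called genes, the genes with the smallest p up to 20, up to 4 genes with the smallest p of each of 11 lists (8 of imprinted lists), Xist and up to 12 matches to mitochondrial genes; other genes were chosen after their values were seen: the chromosome 7 and 12 genes described beside their arrays, Mid1 and its neighbours, and those said so in place. Alternatives covered DESeq2 1.42.0, scaling, filters, all 11 mice in 1 fit, age, tissue markers and leaving out mice. Some genes that the naming rule would list are not reported here.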

Additional observations from a re-analysis of the deposited data

How the results depend on the processing

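The count of called genes (8, with 6 higher and 2 lower) moved with the method: DESeq2 called 102 (60 higher, 42 lower), a fit without a filter on low counts 39 (29 higher, 10 lower), all 11 mice in 1 fit 26 (22 higher, 4 lower), age in weeks as a term 5 (0 lower), the fit without both striatum-rich libraries 5 (3 higher) and the cerebellar marker term, chosen after seeing the data, 0 in either direction. Without 1 mouse it was 4 to 22 (3 to 20 higher, 1 to 4 lower): 4 without CAST-mother mouse 2 or BL6-mother mouse 1, and 22 without CAST-mother mouse 3. Chromosome 7 snoRNAs were 1 of the 8 calls. With DESeq2 32 of them were called, without the filter 22 and with all 11 mice in 1 fit 16. Without CAST-mother mouse 3 it was 15, with RLE scaling factors 3 and with age in weeks 1. Under every other alternative none of these snoRNAs was called. The old count of 7 ran from 3 to 89 without 1 mouse: 89 without CAST-mother mouse 2, 11 without CAST-mother mouse 1 and 3 without BL6-mother mouse 1. The cause was not tested. The 8 called genes kept their direction under all 16 alternatives. All were called by DESeq2, without the filter, and with all 11 mice in 1 fit.

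Over 95 named genes and 16 settings, 1494 values were computed, of which 1347 kept direction and side of the threshold, 34 lost their call, 74 gained one and 39 changed sign, all in genes that were not called. The sign changes, as log2 differences, were these. With age in weeks as a term: Gjc3 -0.016, Xlr4c -0.040, Snhg14 -0.35, Snrpn 0.029, Gm24966 -1.01 and Gm25870 -0.23. With the cerebellar term: Zim2 -0.65, Gm15726 0.34, G530011O06Rik 0.10, Xlr4a 1.499, Snrpn 0.19, Ube3a 0.44, Mid1 0.39, Gm15247 0.16, Snord64 0.61 and Snord107 0.71. With the striatal term: Gm24966 -0.011. With upper-quartile factors: Snhg14 -0.0075 and Gm24966 -0.0053. Without both striatum-rich libraries: Magel2 0.16, Snhg14 -0.0094, Meg3 0.042 and Rian 0.036. Without 1 mouse, the values ran from -1.83 to 0.020 for Magel2, -1.16 to 0.42 for Xlr4a, -0.24 to 0.24 for Snhg14, -0.081 to 0.055 for Snrpn, -0.20 to 0.11 for Ube3a, -0.25 to 0.18 for Rian, -0.50 to 0.35 for Gm24966 and -0.45 to 0.32 for Snord107, crossing 0. No paired analysis was possible because the replicate numbers only name the mice. Low counts limit the precision of the snoRNA copies and of Klf14.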
